A study of Mus musculus with 6 samples.

Results

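The genes that make, degrade and receive cyclic AMP (cAMP) were compared between ventricles with and without forced expression of COUP-TFII. They were taken as every probe set that names exactly 1 gene whose symbol starts with *Adcy*, *Prkar* or *Prkac*, or with *Pde* followed by a digit, and the probe sets of a gene were averaged. This gave 43 genes with 112 probe sets, of 18193 genes and 34945 single-gene probe sets in all, and 13 of the 43 genes had 1 probe set. The choice used names alone and no measured value. It also took in PACAP (*Adcyap1*) and its receptor (*Adcyap1r1*), which signal to adenylyl cyclase. A further 3 genes with a *Pde* name have another role and were not counted as genes of cyclic nucleotide phosphodiesterases.

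The RNA of whole ventricles, from 3 animals of the CTRL group and 3 of the OE group, was hybridised to Affymetrix mouse genome arrays, 6 in all, with 1 mouse per array. CTRL mice carried Myh6-MCM, a tamoxifen-activated Cre recombinase under a promoter of cardiomyocytes. OE mice carried Myh6-MCM together with CAG-S-COUP-TFII, an allele from which Cre activity releases COUP-TFII. All 6 mice were of the strain 129SvEv/C57Bl6/J mixed, all were given tamoxifen (40 mg/kg/day) for 3 days from an age of 2 months, and all were killed 16 days after the first dose, at a labelled age of 2.5 months. CTRL mice thus had the same Cre and the same drug, and a wild-type or untreated group was not analysed here. The allele is switched on in cardiomyocytes, whereas the RNA came from all cells of the ventricle, so that fewer cells of a type and less RNA per cell of that type cannot be told apart. Deposited values were log2 values, each probe set set to 0 at its median over the 6 arrays, so they give differences between arrays and no level, and no gene is ranked against another by level.

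Adenylyl cyclases make cAMP from ATP when stimulatory G proteins, coupled to receptors such as the beta-adrenergic receptors, activate them, and inhibitory G proteins restrain several of them. cAMP releases the catalytic subunits of protein kinase A (PKA) from their regulatory subunits, and in cardiomyocytes PKA phosphorylates calcium channels, phospholamban and myofilament proteins, which raises the force and speed of the beat. Phosphodiesterases (PDEs) end the signal by hydrolysing cAMP, cyclic GMP (cGMP) or both, and keep it local within the cell.

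The start regions of 4 genes described below are given first, since COUP-TFII is a nuclear receptor that binds repeats of the sequence AGGTCA, and cAMP acts on transcription through CREB, which binds the cAMP response element (CRE), TGACGTCA, or its half-site, TGACG. *Adcy7* showed the largest rise, *Prkar1a* rose and holds the full element, and *Adcy9* and *Pde2a* fell. Sequences are RefSeq windows on GRCm38.p6 from 250 bases before to 50 after a transcript start, 5′ to 3′ on the strand of the gene, with these 3 motifs on either strand in capitals.
Adcy7 (chr8:88282742-88283041, plus strand): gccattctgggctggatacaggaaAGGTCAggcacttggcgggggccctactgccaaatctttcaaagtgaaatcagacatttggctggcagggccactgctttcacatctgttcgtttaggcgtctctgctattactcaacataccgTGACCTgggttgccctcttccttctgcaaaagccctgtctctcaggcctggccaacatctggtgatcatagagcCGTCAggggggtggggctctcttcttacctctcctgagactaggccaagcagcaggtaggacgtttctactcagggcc
Prkar1a (chr11:109650699-109650998, plus strand): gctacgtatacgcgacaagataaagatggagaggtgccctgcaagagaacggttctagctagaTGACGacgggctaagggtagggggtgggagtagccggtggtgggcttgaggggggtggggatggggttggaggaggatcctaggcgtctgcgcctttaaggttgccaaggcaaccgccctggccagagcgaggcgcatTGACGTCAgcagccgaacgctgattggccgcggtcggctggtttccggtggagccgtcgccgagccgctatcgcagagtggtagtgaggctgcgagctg
Adcy9 (chr16:4420449-4420748, minus strand): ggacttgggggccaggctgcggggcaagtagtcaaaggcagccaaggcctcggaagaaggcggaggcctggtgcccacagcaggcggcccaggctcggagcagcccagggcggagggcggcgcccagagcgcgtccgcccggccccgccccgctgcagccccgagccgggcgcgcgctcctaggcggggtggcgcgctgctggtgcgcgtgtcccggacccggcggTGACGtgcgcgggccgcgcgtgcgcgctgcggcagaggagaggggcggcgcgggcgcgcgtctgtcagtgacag
Pde2a (chr7:101421441-101421740, plus strand): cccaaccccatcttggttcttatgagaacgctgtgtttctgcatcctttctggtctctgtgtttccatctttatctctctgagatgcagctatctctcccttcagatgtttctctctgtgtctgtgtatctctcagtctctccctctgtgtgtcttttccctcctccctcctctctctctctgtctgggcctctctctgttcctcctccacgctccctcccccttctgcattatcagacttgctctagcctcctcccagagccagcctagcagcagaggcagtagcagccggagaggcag
The *Adcy7* window holds AGGTCA 226 bases before the start and its reverse complement 102 bases before it, with a CRE half-site at 28 bases. The *Prkar1a* window holds the full CRE 49 bases before the start, where the palindrome contains both of its half-sites, and a further half-site at 187 bases. In *Adcy9* a half-site lies 24 bases before the start. The *Pde2a* window printed holds none of these letters, while 1 of the 5 windows of this gene holds a half-site of the CRE. Of the 3 windows of *Adcy7* only the one printed holds any of the motifs. Of the 6 windows of *Prkar1a*, 1 that is not printed holds AGGTCA. The windows shown are the first by position of *Adcy7* and *Pde2a*, the only one of *Adcy9* and, for *Prkar1a*, the later of the 2 overlapping windows with the full CRE. The reference had windows for 34 of the 43 genes, 73 in all, and the other 9 genes were not searched. AGGTCA on either strand was found in 8 of the 73 windows (11%) and in 16.3% of all 32851 windows. The half-site TGACG was found in 18 of the 73 windows (24.7%) and in 20.8% of all windows, and each full CRE counts among these. The full CRE was found in 2 of the 73 windows, both of *Prkar1a*, and in 1.79% of all windows. The direct repeat of AGGTCA with 1 base between its copies was in none of the 73 windows and in 0.0396% of all windows. These matches describe letters and do not show that a factor was bound.

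The arrays separated by group over all genes, since the root mean square distance on the log2 scale was at most 0.233 between arrays of the same group and at least 0.375 between arrays of different groups. The gene of COUP-TFII, *Nr2f2*, was higher in OE by 0.38 on the log2 scale (SE 0.12, adjusted p = 0.0466) as the mean of its 6 probe sets and by 3.49 in the most variable of them. Its averaged value lost the call without any 1 array other than CTRL 3 (adjusted p up to 0.135). A gene was called where its adjusted p was under 0.05 in a limma fit over all 18193 genes, of which 26.7% were called. The median log2 change of 42 ribosomal protein genes was 0.21, and centring each array on them lowered the median over all genes to −0.25, from −0.03.

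Of the 43 genes, 16 were called (37.2%, against 26.7% of all genes), 7 of them higher in OE (14.9% of all genes were higher) and 9 lower (11.8% of all genes were lower). Under the ribosomal centring the split was 3 higher and 26 lower, and all 16 called genes kept their sign. The genes that rose were *Adcy7*, *Prkar1b*, *Prkar1a*, *Pde12*, *Pde3b*, *Pde1a* and *Pde9a*, and those that fell were *Adcy6*, *Pde2a*, *Adcy9*, *Pde4a*, *Pde3a*, *Pde1c*, *Pde5a*, *Prkar2a* and *Pde6g*. All but *Pde6g* changed by more than 1.2-fold and only *Adcy7* by more than 2-fold. The 2 groups did not overlap for 26 of the 43 genes (60.5%, against 45.6% of all genes), which included the 16 called genes. The median log2 change of the 43 genes was −0.04 (all genes −0.03), and the median size of the change regardless of sign was 0.20 (all genes 0.17).

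**Figure D1:**
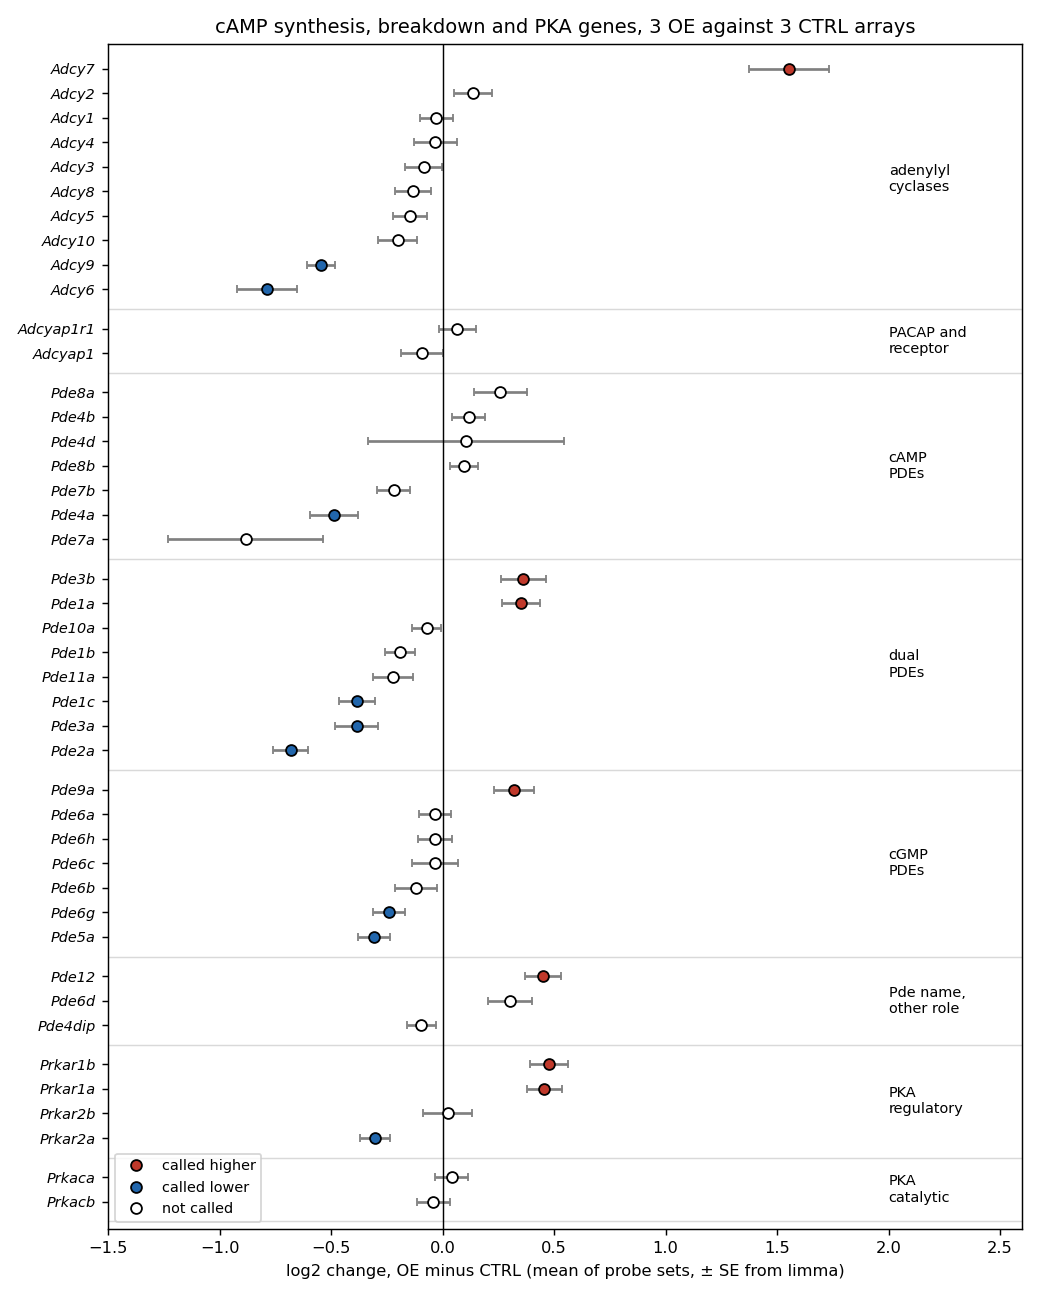
Log2 change, OE minus CTRL, of each of the 43 genes with its SE from limma, grouped by role, from 3 OE and 3 CTRL arrays; red points were called higher, blue points lower, open points were not called. *Adcy7* stands at 1.55 and *Adcy6*, *Pde2a* and *Adcy9* at −0.79, −0.68 and −0.54, while most open points lie near 0 and *Pde7a* and *Pde4d* have the widest errors.

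Among the 10 adenylyl cyclases, *Adcy7* rose and *Adcy6* and *Adcy9* fell, and the other 7 were not called. *Adcy6*, with *Adcy5*, is a main cyclase of the adult cardiomyocyte and is inhibited by calcium, *Adcy9* is a cyclase found in heart that responds poorly to forskolin, and *Adcy7* is known from blood and immune cells. *Adcy7* measured −0.88, −0.89 and −0.50 in the CTRL arrays and 0.82, 1.12 and 0.44 in the OE arrays. The groups did not overlap, with CTRL 3 and OE 3 nearest to each other. The log2 change was 1.55 (SE 0.18, adjusted p = 0.0012), a 2.93-fold rise, from a mean of −0.76 ± 0.22 in CTRL to 0.79 ± 0.34 in OE (SD, n = 3). All 3 of its probe sets were called higher, by 1.08 to 2.05.

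*Adcy6* measured 0.17, 0.54 and 0.51 in CTRL and −0.43, −0.55 and −0.17 in OE. Every OE array lay below every CTRL array, with a log2 change of −0.79 (SE 0.13, adjusted p = 0.0052), or 1.73-fold lower, from its only probe set. One-way analysis of variance did not call it (adjusted p = 0.0552). The methods name this test, but there it followed a filter on expression, and here it was run on gene means over all genes. *Adcy9* measured 0.28, 0.27 and 0.27 in CTRL and −0.23, −0.26 and −0.33 in OE. Its CTRL arrays were nearly alike (SD 0.0058 in CTRL and 0.052 in OE, n = 3), and it showed a log2 change of −0.54 (SE 0.064, adjusted p = 0.0012), or 1.46-fold lower. All 4 of its probe sets were called lower, by −0.32 to −0.67.

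*Adcy5* measured 0.04, 0.11 and 0.09 in CTRL and 0.04, −0.06 and −0.18 in OE. The OE arrays were lower by a narrow gap, and the log2 change of −0.15 (SE 0.076, adjusted p = 0.193) was not called. *Adcy4*, a cyclase known from endothelium, measured 0.05, −0.18 and 0.01 in CTRL and 0.02, −0.23 and −0.01 in OE, with overlapping groups and a log2 change of −0.03 (adjusted p = 0.82). The remaining cyclases were not called either, at log2 changes of −0.20 for *Adcy10*, the soluble bicarbonate-sensitive cyclase, −0.13 for *Adcy8*, −0.08 for *Adcy3*, −0.03 for *Adcy1* and 0.14 for *Adcy2*. One of the 4 probe sets of *Adcy3* was called lower, by −0.35. PACAP (*Adcyap1*, −0.09) and its receptor (*Adcyap1r1*, 0.07) were not called.

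Because the cyclases moved in opposite directions, they were also set against each other within each array, a description that no scaling of the arrays can alter and for which the pairs were picked after their values were seen. *Adcy7* minus *Adcy6* was −1.16 ± 0.24 in CTRL and 1.18 ± 0.54 in OE (SD, n = 3), a difference of 2.34 on the log2 scale. *Adcy7* minus *Adcy9* was −1.03 ± 0.22 in CTRL and 1.07 ± 0.30 in OE. Neither pair overlapped between the groups, which had to follow since *Adcy7* was higher and *Adcy6* and *Adcy9* lower in every OE array. These values are relative to each probe set's own median and do not say which cyclase was more abundant.

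**Figure D2:**
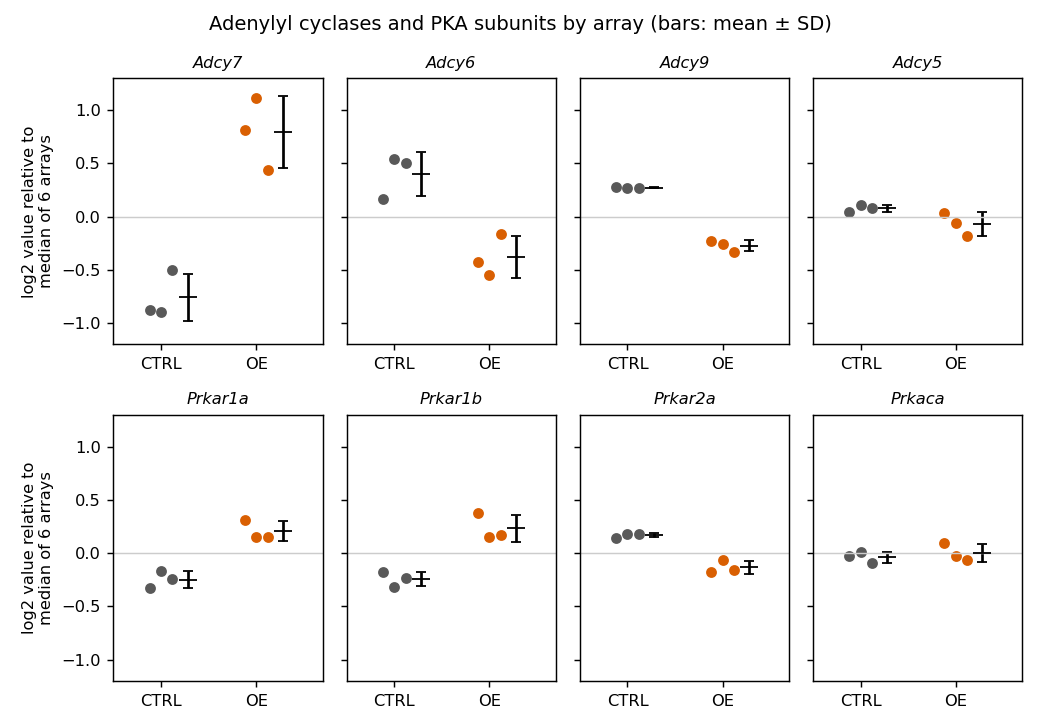
Log2 value of each array relative to the median of the 6 arrays for 4 adenylyl cyclases (upper row) and 4 PKA subunits (lower row), with CTRL in grey, OE in orange and bars for mean ± SD (n = 3). *Adcy7*, *Prkar1a* and *Prkar1b* were higher in all OE arrays and *Adcy6*, *Adcy9* and *Prkar2a* lower, whereas *Adcy5* shifted by −0.15 and *Prkaca* by 0.04.

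Markers of the cell types of a ventricle moved between the groups as well. Of 16 cardiomyocyte markers 3 were called higher and 9 lower, and their mean per array ran from 0.13 to 0.18 in CTRL and from −0.22 to −0.15 in OE. *Myh6*, whose promoter drives the Cre, was among the lower ones at −1.31. Of 12 macrophage markers 6 were higher and none lower, with list means of −0.36 to −0.12 in CTRL and 0.02 to 0.38 in OE, and *Cd14* (1.10) and *C1qb* (0.70) changed most among those called. Of 10 fibroblast markers 6 were higher and 1 lower (list means −0.70 to −0.25 in CTRL and 0.23 to 0.44 in OE). Of 12 endothelial markers none was higher and 6 were lower (0.10 to 0.36 in CTRL and −0.20 to −0.01 in OE), and of 8 smooth muscle and pericyte markers 3 were higher and 4 lower (−0.42 to −0.06 in CTRL and 0.15 to 0.30 in OE). The mean of this last list includes *Cnn1*, at a log2 change of 4.94, whereas the median log2 change of the list was −0.32. None of 9 lymphocyte markers was called, and of 7 neuronal and nerve markers 2 were higher and 2 lower. The values hold no level, so it could not be checked whether any of these markers was absent. The part of these markers in the changes of the cyclases, PDEs and PKA subunits was not tested.

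The 22 cyclic nucleotide PDE genes fall into 3 classes by substrate. Of the 22 genes 3 rose and 6 fell, to be read against 14.9% and 11.8% of all genes. These counts hold photoreceptor subunit genes as well, such as *Pde6g*, 1 of the 6 that fell, which encodes an inhibitory subunit and not an enzyme. Most calls were in the class that hydrolyses both cAMP and cGMP, with 2 of 8 genes higher and 3 lower. *Pde2a*, whose product is stimulated by cGMP to break down cAMP, measured 0.30, 0.51 and 0.30 in CTRL and −0.30, −0.37 and −0.27 in OE. The gap between the groups was wider than the spread within either, and the log2 change was −0.68 (SE 0.080, adjusted p = 0.0012), or 1.60-fold lower. All 3 probe sets were called, at −0.61 to −0.78.

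*Pde3a* and *Pde3b* encode the PDEs inhibited by cGMP, of which PDE3A is the main target of milrinone in the heart, and they moved in opposite directions. *Pde3a* measured 0.06, 0.41 and 0.15 in CTRL and −0.15, −0.16 and −0.22 in OE, a log2 change of −0.39 (SE 0.096, adjusted p = 0.0230). *Pde3b* measured −0.24, −0.32 and −0.02 in CTRL and 0.23, 0.25 and 0.02 in OE, a log2 change of 0.36 (SE 0.10, adjusted p = 0.0352). Neither pair of groups overlapped, but CTRL 3 and OE 3 of *Pde3b* were close together. Of the 3 probe sets of *Pde3a*, at −0.54 to −0.10, 1 was called lower. With its most variable probe set alone *Pde3a* was not called. *Pde3b* has 1 probe set. Both calls depended on single arrays. *Pde3a* was no longer called without OE 1, OE 2 or OE 3 (log2 change −0.29 to −0.46 and adjusted p up to 0.0678 over the 6 fits that each left out 1 array), and *Pde3b* was not called without CTRL 1, CTRL 2, OE 1 or OE 2 (0.30 to 0.45, adjusted p up to 0.109). Within an array *Pde3b* minus *Pde3a* was −0.40 ± 0.29 in CTRL and 0.35 ± 0.09 in OE (SD, n = 3).

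The calcium- and calmodulin-stimulated PDEs also split. *Pde1c*, which is expressed in cardiomyocytes, measured 0.28, 0.24 and 0.05 in CTRL and −0.24, −0.19 and −0.16 in OE, a log2 change of −0.38 (SE 0.079, adjusted p = 0.0115), and 4 of its 6 probe sets were called lower. *Pde1a*, known from smooth muscle and fibroblasts as well, measured −0.29, −0.17 and −0.07 in CTRL and 0.27, 0.07 and 0.19 in OE, a log2 change of 0.35 (SE 0.087, adjusted p = 0.0218). The rise of *Pde1a* came from 1 of its 2 probe sets, at 0.71 against −0.01 in the other, and the call was lost without CTRL 1, CTRL 2, OE 1 or OE 3 (0.29 to 0.41, adjusted p up to 0.0761). *Pde1a* minus *Pde1c* within an array was −0.36 ± 0.23 in CTRL and 0.37 ± 0.13 in OE. The other genes of the class were not called, with log2 changes of −0.22 for *Pde11a*, −0.19 for *Pde1b* and −0.07 for *Pde10a*, although the arrays of *Pde11a* and *Pde1b* did not overlap between the groups.

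Of the 7 PDEs selective for cAMP, only *Pde4a* was called. The *Pde4* genes encode the rolipram-sensitive PDEs, which sit in complexes with receptors, phospholamban and the ryanodine receptor. *Pde4a* measured 0.40, 0.24 and 0.10 in CTRL and −0.22, −0.10 and −0.41 in OE from its only probe set. The OE arrays were all lower, with a log2 change of −0.49 (SE 0.11, adjusted p = 0.0154), or 1.40-fold, and one-way analysis of variance did not call it (adjusted p = 0.0805). *Pde4b* measured −0.19, −0.06 and −0.00 in CTRL and 0.02, 0.07 and 0.00 in OE, a log2 change of 0.12 (adjusted p = 0.271), and 1 of its 6 probe sets was called higher at 0.56. *Pde8a*, a PDE of high affinity for cAMP, measured −0.45, −0.09 and −0.03 in CTRL and 0.19, −0.01 and 0.03 in OE, a log2 change of 0.26 (SE 0.12, adjusted p = 0.148). For both genes the groups touched without overlapping.

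*Pde4d* and *Pde7a* varied more among the CTRL mice than any other member. *Pde4d* measured −1.37, 0.30 and 0.53 in CTRL and −0.05, −0.24 and 0.06 in OE. CTRL 1 lay far below the other arrays, which came from 1 of the 2 probe sets, at −2.58 in that array, while the other probe set stood at −0.17. The log2 change of *Pde4d* was 0.10 (SE 0.44, adjusted p = 0.879) with all arrays and −0.49 (adjusted p = 0.0336) without CTRL 1. In CTRL 2 and CTRL 3 the probe set with the low value stood at 0.46 and 1.05, against −0.31, −0.48 and 0.31 in OE. The other probe set stood at 0.13 and 0.01 in these CTRL arrays and 0.21, −0.01 and −0.20 in OE. *Pde7a*, singled out after its values were seen, measured 1.10, 1.33 and −0.17 in CTRL and −0.04, −0.33 and −0.02 in OE. Here CTRL 3 lay nearer to the OE arrays than to the other CTRL arrays, in all 7 probe sets. The log2 change of −0.88 (SE 0.35) was the largest fall among the 43 genes and was not called (adjusted p = 0.0977), whereas without CTRL 3 it was −1.35 (adjusted p = 0.00087). *Pde7b* (−0.22, adjusted p = 0.0606) and *Pde8b* (0.10, adjusted p = 0.288) were not called.

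**Figure D3:**
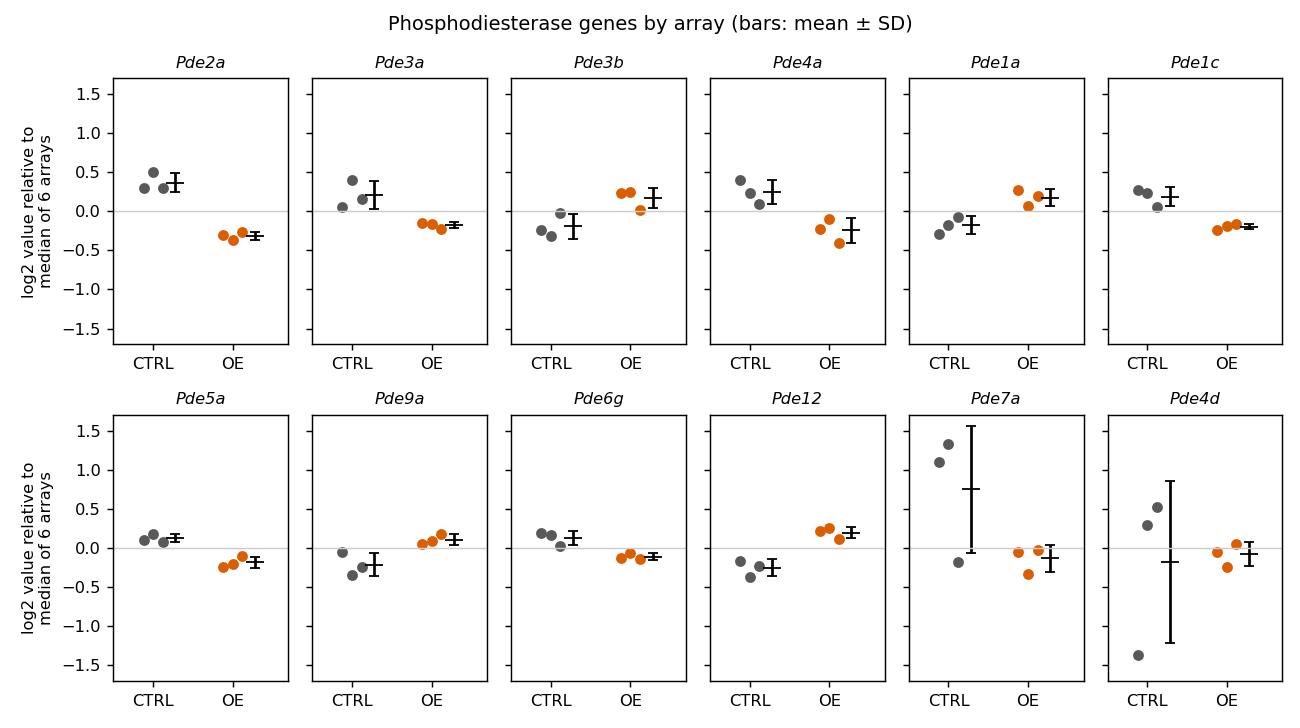
Log2 value of each array relative to the median of the 6 arrays for 12 *Pde* genes, with CTRL in grey, OE in orange and bars for mean ± SD (n = 3). *Pde2a* shows the widest gap among the called genes, and in *Pde7a* and *Pde4d* 1 CTRL array stands apart from the others, at −0.17 in CTRL 3 and at −1.37 in CTRL 1.

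Among the 7 genes of the PDEs selective for cGMP, *Pde9a* rose and *Pde5a* and *Pde6g* fell. PDE5A is the target of sildenafil, and PDE9A has a high affinity for cGMP and is linked to natriuretic peptide signalling in the heart. *Pde5a* measured 0.11, 0.18 and 0.08 in CTRL and −0.24, −0.21 and −0.10 in OE, a log2 change of −0.31 (SE 0.070, adjusted p = 0.0169). Of its 3 probe sets, at −0.44 to −0.15, 1 was called lower, of a kind (suffix _x_at) whose probes can bind other transcripts. *Pde5a* was called without probe sets of the kinds _x_at and _s_at, but not with its most variable probe set alone. *Pde9a* measured −0.05, −0.34 and −0.24 in CTRL and 0.05, 0.09 and 0.18 in OE, a log2 change of 0.32 (SE 0.090, adjusted p = 0.0349). *Pde6g*, an inhibitory subunit of the photoreceptor PDE, measured 0.19, 0.16 and 0.03 in CTRL and −0.13, −0.06 and −0.14 in OE, a log2 change of −0.24 (SE 0.071, adjusted p = 0.0420), with neither of its 2 probe sets called alone. In all 3 genes the groups were separate but by less than in *Pde2a*, and each call was lost without some arrays. *Pde5a* lost it without CTRL 2, OE 1 or OE 2 (−0.28 to −0.35, adjusted p up to 0.0621), *Pde9a* without any 1 array other than CTRL 1 (0.26 to 0.40, adjusted p up to 0.0999) and *Pde6g* without any 1 array other than CTRL 3 (−0.21 to −0.29, adjusted p up to 0.119). The other photoreceptor subunits were not called, at −0.12 for *Pde6b* and −0.03 each for *Pde6a*, *Pde6c* and *Pde6h*.

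Of the 3 genes with a *Pde* name and another role, *Pde12* was called. Its product removes poly(A) tails in mitochondria. *Pde12* measured −0.16, −0.37 and −0.22 in CTRL and 0.22, 0.26 and 0.12 in OE, a log2 change of 0.45 (SE 0.080, adjusted p = 0.0064), with 2 of 3 probe sets called higher. *Pde6d*, a carrier of prenylated proteins (0.30, adjusted p = 0.0562), was not called. It passed without OE 3 (0.39, adjusted p = 0.0314), with array weights and with each array centred on its median. *Pde4dip*, the scaffold myomegalin (−0.10, adjusted p = 0.307), was not called, with 1 of its 4 probe sets lower at −0.44.

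Of the 4 regulatory subunits of PKA, *Prkar1a* and *Prkar1b* were called higher and *Prkar2a* lower, and neither catalytic subunit was called. Type I regulatory subunits (*Prkar1a*, *Prkar1b*) form a largely soluble PKA, and type II subunits (*Prkar2a*, *Prkar2b*) a PKA held at membranes and myofilaments by A-kinase anchoring proteins. *Prkar1a*, whose window with the full CRE is printed above, measured −0.33, −0.17 and −0.25 in CTRL and 0.32, 0.16 and 0.15 in OE. The log2 change was 0.46 (SE 0.079, adjusted p = 0.0056), or 1.37-fold, with all OE arrays higher and 2 of 3 probe sets called, at 0.15 to 0.91 over the 3. Under the ribosomal centring the log2 change of *Prkar1a* was 0.24 and was not called (adjusted p = 0.0506). *Prkar2a* measured 0.15, 0.18 and 0.18 in CTRL and −0.18, −0.06 and −0.16 in OE, a log2 change of −0.30 (SE 0.065, adjusted p = 0.0132), with 1 of 4 probe sets called and all 4 below 0. Its call was lost without OE 1 (adjusted p = 0.0511). Within an array *Prkar1a* minus *Prkar2a* was −0.42 ± 0.06 in CTRL and 0.34 ± 0.14 in OE (SD, n = 3).

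*Prkar1b*, a subunit best known from brain, measured −0.18, −0.31 and −0.23 in CTRL and 0.38, 0.16 and 0.17 in OE, a log2 change of 0.48 (SE 0.084, adjusted p = 0.0062). Its 5 probe sets ranged from 0.02 to 1.72, and the highest is of a kind (suffix _x_at) whose probes can bind other transcripts. Without probe sets of the kinds _x_at and _s_at the log2 change was 0.16 and was not called (adjusted p = 0.171), so the rise of *Prkar1b* is uncertain. *Prkar2b* (0.02, adjusted p = 0.897) was not called. *Prkaca*, the main catalytic subunit of the heart, measured −0.03, 0.01 and −0.09 in CTRL and 0.10, −0.03 and −0.06 in OE, a log2 change of 0.04 (SE 0.073, adjusted p = 0.714). *Prkacb* measured −0.02, 0.15 and −0.05 in CTRL and −0.02, −0.02 and −0.00 in OE, a log2 change of −0.04 (SE 0.074, adjusted p = 0.703). In both catalytic genes the groups overlapped.

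**Figure D4:**
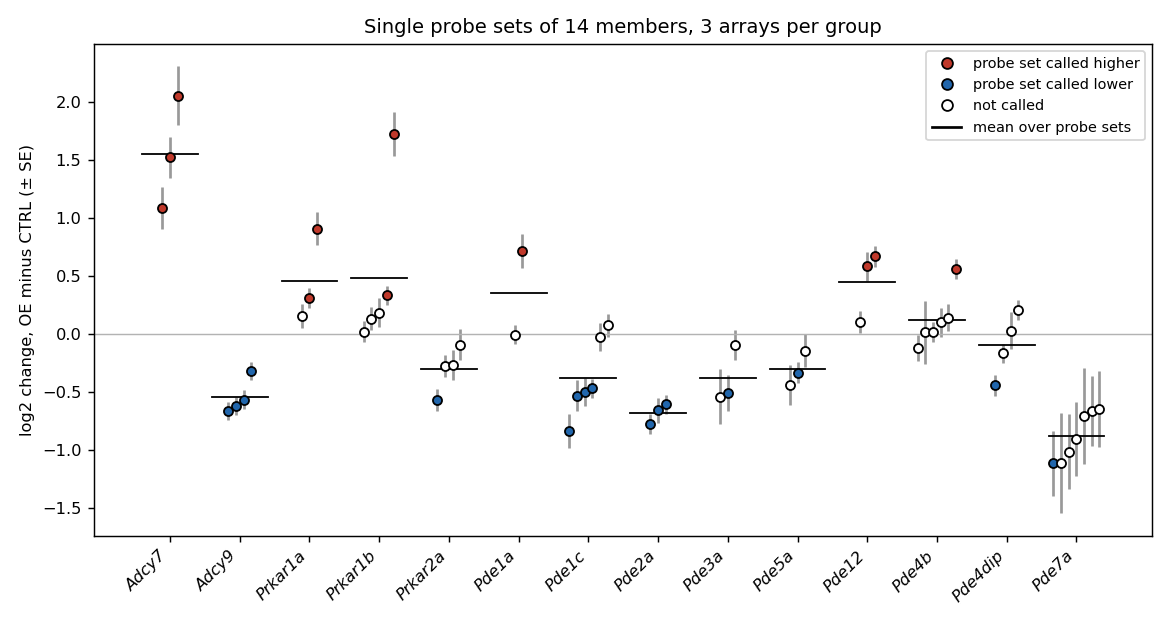
Log2 change, OE minus CTRL, with SE for each probe set of 14 genes; red probe sets were called higher, blue lower, open ones were not called, and the black line is the mean over the probe sets of a gene (3 arrays per group). *Adcy7*, *Adcy9* and *Pde2a* have every probe set called the same way, whereas 1 probe set of *Prkar1b* stands at 1.72 and 1 of *Pde1a* at 0.71, apart from the others of these genes.

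Single probe sets were also tested. Of the 112 probe sets 13 were called higher and 20 lower, where 21% of all 45037 probe sets were called in either direction, and no gene had probe sets called both ways. Besides *Adcy3*, *Pde4b* and *Pde4dip*, the genes *Pde7a*, *Pde7b* and *Pde8b* were not called as a mean but had 1 probe set called. *Pde6g* was called as a mean with no probe set called. *Pde9a* has 1 probe set, so nothing was averaged. It was called in the limma fit over genes (adjusted p = 0.0349) and not in the one over 45037 probe sets (adjusted p = 0.0531).

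The rest of the pathway was followed in lists chosen by role. Of 78 measured genes 12 were called higher and 15 lower, a share each way to be read against 14.9% and 11.8% of all genes, and under the ribosomal centring the split was 7 higher and 42 lower. The beta-adrenergic receptor genes were not analysed here. Of the 7 G protein alpha subunits that act on cyclases, *Gnas*, a stimulatory one, fell by 0.27 on the log2 scale (adjusted p = 0.0170). *Gnai3*, an inhibitory one, rose by 0.37 (adjusted p = 0.0092) and *Gnao1* by 0.28 (adjusted p = 0.0295). *Gnal* (−0.24) was the largest change not called. *Gnas* lost its call without CTRL 1 or OE 2 (adjusted p up to 0.0544), and *Gnao1* without any 1 array other than CTRL 1 (adjusted p up to 0.0828).

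Among 18 A-kinase anchoring proteins, which hold PKA at its targets, *Akap2* (0.78, adjusted p = 0.00052) and *Akap11* (0.32, adjusted p = 0.0176) rose and *Cmya5*, myospryn (−0.997, adjusted p = 0.0020), and the mitochondrial *Akap1* (−0.34, adjusted p = 0.0285) fell. *Akap1* lost its call without CTRL 1, CTRL 2, OE 2 or OE 3 (adjusted p up to 0.0853) and *Akap11* without CTRL 1 or OE 1 (adjusted p up to 0.0622). One-way analysis of variance did not call *Akap1* either. *Akap6*, the anchor of the nuclear envelope, was not called (−0.32), but was without CTRL 3 (−0.44, adjusted p = 0.0301). Of the 3 inhibitor peptides that block free catalytic subunits, *Pkia* fell (−0.64, adjusted p = 0.0025), and *Pkig* (0.12) was not called. Of 6 other proteins that bind cAMP, *Rapgef3* (Epac1) fell (−0.64, adjusted p = 0.0013) and the Popeye genes *Popdc2* (0.83, adjusted p = 0.0012) and *Popdc3* (0.86, adjusted p = 0.0046, or 0.0539 by one-way analysis of variance) rose, and the channel gene *Hcn3* (−0.42) was not called. Neither transporter that exports cAMP was called, *Abcc5* being at 0.20.

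On the cGMP side, 10 guanylyl cyclase, natriuretic receptor and cGMP kinase genes included 1 called gene, *Prkg1* (0.59, adjusted p = 0.0420), the main cGMP-dependent kinase of muscle. Its call was lost without CTRL 2 or any 1 OE array (0.37 to 0.72, adjusted p up to 0.117). *Gucy1a1*, a subunit of the nitric oxide receptor, stood at −0.42 and was not called, but was without CTRL 1 (−0.58, adjusted p = 0.0273).

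Of 12 PKA substrates of the cardiomyocyte 2 rose and 6 fell, with a median log2 change of −0.30. *Fxyd1*, phospholemman, which restrains the sodium pump, fell by 0.69 (adjusted p = 0.00087), *Pln*, phospholamban, by 0.65 (adjusted p = 0.00059), and *Ryr2*, the calcium release channel, by 0.55 (adjusted p = 0.0080, or 0.0572 by one-way analysis of variance). *Ppp1r1a*, an inhibitor of protein phosphatase when phosphorylated by PKA, rose by 1.03 (adjusted p = 0.0052, or 0.0603 by one-way analysis of variance). *Pln* measured 0.37, 0.31 and 0.29 in CTRL and −0.31, −0.34 and −0.33 in OE, and *Ppp1r1a* measured −0.33, −0.57 and −0.25 in CTRL and 0.25, 0.72 and 0.95 in OE, so that neither overlapped. *Hspb6* (0.21) was not called. Among the 12 genes, *Pln*, *Ryr2*, *Ttn*, *Tnni3* and *Mybpc3* are also among the cardiomyocyte markers above. These are mRNA values, and phosphorylation was not measured.

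Of 7 genes of the CREB family and its coactivators, *Crem* rose (0.64, adjusted p = 0.0067) and the acetyltransferase genes *Crebbp* (−0.48, adjusted p = 0.0073) and *Ep300* (−0.47, adjusted p = 0.0093) fell, and *Crtc3* (−0.21) was not called, but was without CTRL 1 (−0.32, adjusted p = 0.0274). Of 14 genes known as CREB targets 3 rose, namely *Fos* (0.82, adjusted p = 0.0156), *Junb* and *Crem*, and 2 fell, namely *Ppargc1a*, a coactivator of mitochondrial genes (−1.15, adjusted p = 0.0383), and *Bdnf* (−0.996, adjusted p = 0.0059). The median of this list was 0.16. One-way analysis of variance did not call *Crem* (adjusted p = 0.0575), *Ep300* (adjusted p = 0.0543) or *Bdnf* (adjusted p = 0.0638). It did not call *Fos* or *Ppargc1a* either. *Ppargc1a* measured 1.43, 1.36 and 0.05 in CTRL and −0.22, −0.05 and −0.35 in OE, with CTRL 3 close to the OE arrays as in *Pde7a*. *Ppargc1a* was called only with all arrays or without CTRL 3 among the fits that left out 1 array (−0.91 to −1.60, adjusted p up to 0.115), and *Fos* lost its call without OE 1 (adjusted p = 0.0526). *Nr4a3* (−0.57) was not called with all arrays and was called without CTRL 3 (−0.89, adjusted p = 0.0087).

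**Figure D5:**
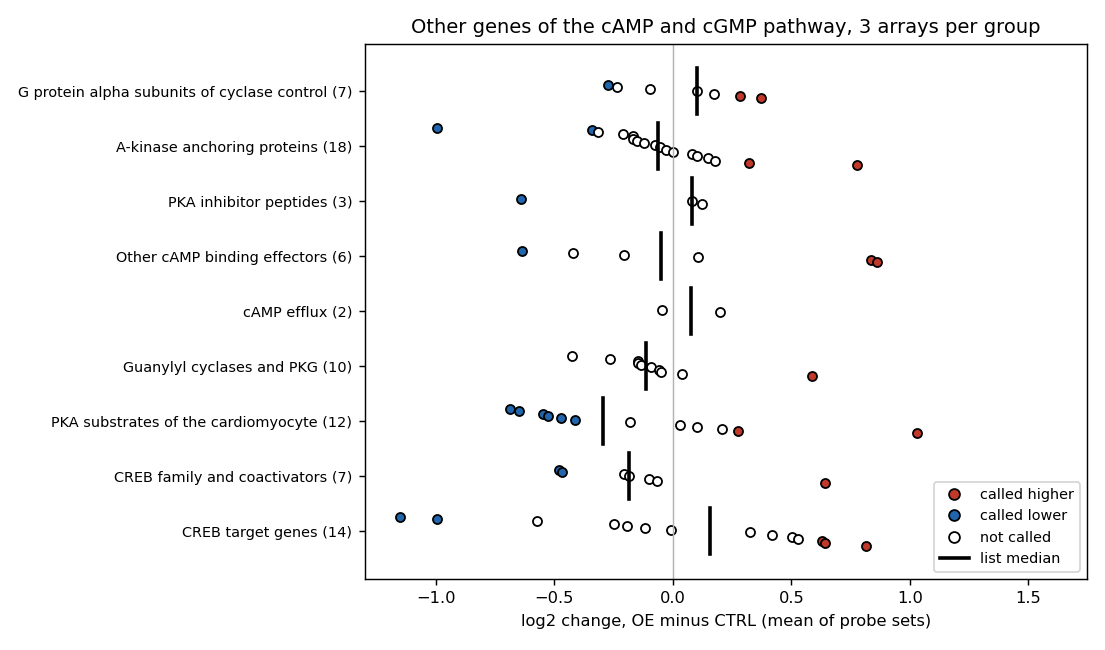
Log2 change, OE minus CTRL, of each measured gene in 9 lists of the cAMP and cGMP pathway (number of genes in brackets, 3 arrays per group); red points were called higher, blue lower, open points were not called, and the black line is the median of a list. PKA substrates have the lowest median, at −0.30, and CREB targets spread from −1.15 to 0.82.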

How the data were processed

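RNA of whole ventricles of 3 CTRL and 3 OE mice was labelled and hybridised by the authors, 1 array per mouse. Per the methods, the authors summarised the arrays by RMA in GeneSpring GX, quantile normalised them and subtracted the median of each probe set over all samples; the deposited values were taken as log2, since RMA gives that scale, and the base and the version of RMA are not given in the sources used here. Array number limits the precision. Probe sets were named by the array annotation, with symbols updated through RefSeq; of 45101 probe sets, 932 with several genes, 9160 others without a gene and 64 array controls were not used for genes, and the rest were averaged per gene. OE was compared with CTRL in a moderated linear model (limma 3.58.1, R 4.3.3, lmFit with eBayes), two-sided, with Benjamini-Hochberg adjustment over 18193 genes and a threshold of 0.05; SE is moderated. Single probe sets were fitted over all 45037 that are no array controls. limma was preferred to the one-way analysis of variance of the methods because 3 arrays give an unsteady variance. As an alternative, that test was run on gene means over all 18193 genes, without the filter on expression of the methods. An exact permutation test of 3 against 3 cannot give a p under 0.1. The code was tested on simulated data.

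Members, roles, pathway lists and markers were chosen with earlier results of these data known. Values in every array are given for each called member and for isoforms known in ventricular cardiomyocytes; other members are given by their change. Of each pathway list, up to 4 called genes with the largest change and the uncalled gene with the largest change were named. *Pde7a*, its neighbours, *Pde4d*'s neighbours, the pairs within an array and *Junb* were named after their values were seen. Other settings tried were array weights, one-way analysis of variance, other rules for probe sets, 2 centrings, the replicate number as a block, a fold limit of 1.2 and leaving out each array. Promoter windows were searched and figures drawn with Python 3.11.15, pandas 2.3.3 and matplotlib 3.10.9.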

Additional observations from a re-analysis of the deposited data

How the results depend on the processing

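Of the 16 called genes of cAMP synthesis, breakdown and PKA, 5 (*Adcy7*, *Adcy9*, *Pde12*, *Pde1c* and *Pde2a*) were called in all 13 alternative fits and 11 lost the call in at least 1, with no change of sign. From the pathway lists, 22 called genes were named by size of change, up to 4 per list. Of these 22, 8 were called in all 13 and 14 lost the call in at least 1, again with no change of sign. *Junb*, named apart from these, is not counted among them. One-way analysis of variance did not call *Adcy6*, *Pde1a*, *Pde3a*, *Pde3b*, *Pde4a*, *Pde6g* or *Pde9a*, and gave 4 members higher and 5 lower, pathway genes 5 higher, and all genes 1437 higher and 1125 lower (in the limma fit 2709 and 2152). Centring on ribosomal protein genes gave 3 members higher and 26 lower, pathway genes 7 and 42, and all genes 1302 and 9236, since it lowers every OE minus CTRL change by the same amount. The called members that lost the call under this centring were *Prkar1a*, *Pde1a*, *Pde3b* and *Pde9a*. Leaving out 1 array gave 4 to 6 members higher and 5 to 10 lower, 7 to 12 pathway genes higher and 11 to 17 lower, and 1830 to 2371 of all genes higher and 1243 to 1731 lower; the fewest members were called without OE 1. With the replicate number as a block 5 members were higher and 8 lower, and all genes 2369 and 1679. Deviations of same-numbered arrays correlated at 0.070, −0.117 and 0.025 over genes, and 2 of 6 arrays correlated best with their own number in the other group, so the numbers were not taken as pairs. Testing probe sets one by one gives no single value per gene.

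Log2 changes of uncalled genes near 0 turned sign in some fits. Under ribosomal centring these were *Adcy2* (−0.082), *Adcyap1r1* (−0.15), *Pde4b* (−0.10), *Pde4d* (−0.11), *Pde8b* (−0.12), *Prkaca* (−0.18), *Prkar2b* (−0.20), *Pkig* (−0.10), *Abcc5* (−0.018) and *Hspb6* (−0.011). Without _x_at and _s_at probe sets they were *Adcy3* (0.011), *Prkar2b* (−0.0022) and *Pkig* (−0.064), and with the most variable probe set *Pde10a* (0.21), *Pde6h* (0.027) and *Pkig* (−0.064). Leaving out 1 array gave ranges of −0.079 to 0.013 for *Adcy1*, −0.11 to 0.044 for *Adcy4*, −0.15 to 0.0076 for *Adcyap1*, −0.49 to 0.46 for *Pde4d*, −0.062 to 0.0049 for *Pde6a*, −0.14 to 0.025 for *Pde6c*, −0.086 to 0.00082 for *Pde6h*, −0.0079 to 0.073 for *Prkaca*, −0.081 to 0.018 for *Prkacb*, −0.060 to 0.13 for *Prkar2b* and −0.0087 to 0.21 for *Pkig*. Apart from the ribosomal centring, the causes were not tested.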

Other observations

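The genes next to *Pde7a* and *Pde4d* on their chromosomes varied less over the 6 arrays. *Pde7a* ranged over 1.66 on the log2 scale, and its neighbours *Mtfr1* and *Dnajc5b* over 0.24 and 0.22. *Mtfr1* measured 0.05, −0.00 and 0.08 in CTRL and −0.08, 0.05 and −0.17 in OE, and *Dnajc5b* measured −0.01, 0.12 and −0.09 in CTRL and 0.01, −0.02 and 0.03 in OE. CTRL 3 was thus the lowest CTRL array in *Dnajc5b*, as in *Pde7a*, and the highest in *Mtfr1*. *Pde4d* ranged over 1.90, and its neighbours *Depdc1b* and *Rab3c* over 0.31 and 0.13. *Depdc1b* measured −0.18, 0.13 and 0.11 in CTRL and −0.08, −0.14 and 0.08 in OE, and *Rab3c* measured −0.08, 0.04 and 0.02 in CTRL and 0.05, −0.02 and −0.06 in OE. CTRL 1 was the lowest of the 6 arrays in both, as in *Pde4d*, at a smaller size.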
